A study of Mus musculus with 20 samples.

Results

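Abca1 encodes a membrane transporter that loads cellular cholesterol onto apolipoproteins. Here it is described in mouse spinal cord together with genes that act beside it in cholesterol export. The 9 listed genes (Abca1, Abcg1, Abcg4, Apoe, Nr1h2, Nr1h3, Mylip, Npc1 and Npc2) were chosen by name, with earlier results of these data known. A gene counted as measured where a probe set carried its symbol alone. By that rule 8 of the 9 were measured, among 22180 genes tested. No probe set carried Nr1h2 as its only symbol in the annotation used, so Nr1h2 was not analysed here. Abca1 was put forward because it was already known to be higher after dexamethasone in these arrays. Its differences between dexamethasone and saline are therefore a description that supports nothing, and for Abca1 only the comparisons between genotypes are read as tests.

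Transcripts of spinal cord were read on Affymetrix arrays that cover whole transcripts, with 5 arrays, 1 per sample, in each of 4 groups. All mice were C57BL/6J and 6 to 10 weeks old. The groups were Cx30GRko mice given dexamethasone (Dex, 4 mg/kg), Cx30GRko mice given saline, control mice given Dex at the same dose and control mice given saline, all injected intraperitoneally and sampled 4 h later. Cx30GRko mice lack the glucocorticoid receptor gene where Cre recombinase has acted in cells expressing connexin 30, a gap junction protein of astrocytes. The Cre line, its timing and the alleles carried by the controls are not given in the sources used here, and other cord cells keep the receptor. In bulk tissue, fewer cells of a type and less RNA per cell cannot be told apart.

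Cholesterol does not cross the blood-brain barrier in lipoproteins, so the central nervous system makes its own and moves it between cells. ABCA1 transfers cholesterol and phospholipid to lipid-poor apolipoproteins, in the nervous system mainly apolipoprotein E released by astrocytes, and ABCG1 and ABCG4 add cholesterol to the particles so formed. The liver X receptors (LXR; Nr1h3 encodes LXR alpha and Nr1h2 LXR beta) sense oxysterols and, paired with retinoid X receptors, switch on Abca1, Abcg1, Apoe and Mylip. Glucocorticoids act through a different nuclear receptor, the product of Nr3c1.

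Values are log2 signals of probe sets. They had been centred within 2 sets of arrays, replicates 1 to 3 (12 arrays) and replicates 4 and 5 (8 arrays), which the labels do not mention. The typical gene scattered more in the second set, with a median residual SD of 0.373, against 0.212 in the first. Cx30GRko Dex replicates 4 and 5 stood apart, with log2 signals that spread more widely over the probe sets of an array (SDs 1.95 and 1.81; all other arrays 1.66 to 1.71). Markers of the main cord cells were well above that level of a typical probe set: on single arrays the mean log2 signal ran from 7.43 to 8.42 for neuron markers, 7.26 to 8.47 for oligodendrocyte markers and 7.03 to 8.20 for astrocyte markers, while the mean over all probe sets was 4.64. Nr3c1 ran from 6.08 to 7.79 in Cx30GRko Dex, 6.01 to 6.49 in Cx30GRko saline, 6.11 to 6.30 in control Dex and 5.40 to 6.58 in control saline arrays. The knockout is therefore not visible in this probe set, and the sources used here do not tell whether it covers the deleted exons.

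The proximal promoter of Abca1 is shown because Abca1 was higher after Dex and is a classical LXR target, and that of Mt1 because, of all genes, its signal followed that of Abca1 most closely over the 20 arrays. Both are the 250 bases before the start site, 5′ to 3′ on the gene's strand, from RefSeq (GRCm38.p6). The Abca1 stretch is chr4:53159896-53160145 (minus strand) and the Mt1 stretch is chr8:94178839-94179088 (plus strand). Capitals mark the motif match in each.
Abca1: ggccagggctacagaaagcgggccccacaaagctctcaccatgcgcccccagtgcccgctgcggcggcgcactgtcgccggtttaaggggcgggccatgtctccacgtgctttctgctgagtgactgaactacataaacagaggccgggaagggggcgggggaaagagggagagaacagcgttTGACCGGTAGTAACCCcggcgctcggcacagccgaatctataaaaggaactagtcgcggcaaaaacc
Mt1: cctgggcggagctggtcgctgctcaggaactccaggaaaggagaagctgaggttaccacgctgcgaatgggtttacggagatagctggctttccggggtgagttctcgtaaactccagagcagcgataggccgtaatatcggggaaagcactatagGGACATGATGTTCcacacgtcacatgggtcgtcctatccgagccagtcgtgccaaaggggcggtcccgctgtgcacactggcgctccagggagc
A pair of motifs was searched on both strands in windows from 250 bases before to 50 bases after each start. The first, GNACANNNTGTNC, is a palindrome of the kind bound by the glucocorticoid receptor and was found in 156 of 32851 windows (0.475%). The second, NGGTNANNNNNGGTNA, is a direct repeat with a 4-base spacer, the kind bound by LXR with its partner, and was found in 236 windows (0.718%). The 2 patterns differ in their letters and length. The Abca1 window held the direct repeat at -67 to -52 and no palindrome, and the Mt1 window held the palindrome at -94 to -82. Neither motif was found in the windows of Mt2, Cdkn1a, Selenop and Hipk1, the genes next in likeness to Abca1. Of the 9 listed genes, 6 had a window in the table, 1 (Abca1) held the direct repeat and 0 held the palindrome. A match describes these letters only, and a window without one says nothing of elements elsewhere.

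Abca1 had higher signal after Dex in both genotypes. Its probe set (17425301) gave log2 signals, in the order of replicates 1 to 5, of 5.76, 5.88, 6.25, 6.53 and 6.42 in Cx30GRko Dex arrays. In Cx30GRko saline arrays the Abca1 signals were 5.76, 5.39, 5.93, 5.37 and 5.36. The ranges of these 2 groups overlapped, because Cx30GRko Dex replicates 1 and 2 lay within the range of Cx30GRko saline. In control mice Abca1 gave 6.50, 6.44, 6.24, 6.43 and 6.56 after Dex. With saline the control arrays gave 5.74, 5.75, 5.92, 5.32 and 5.71. Every control Dex array thus lay above every control saline array, as was so for 0.784% of all genes.

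**Figure D1:**
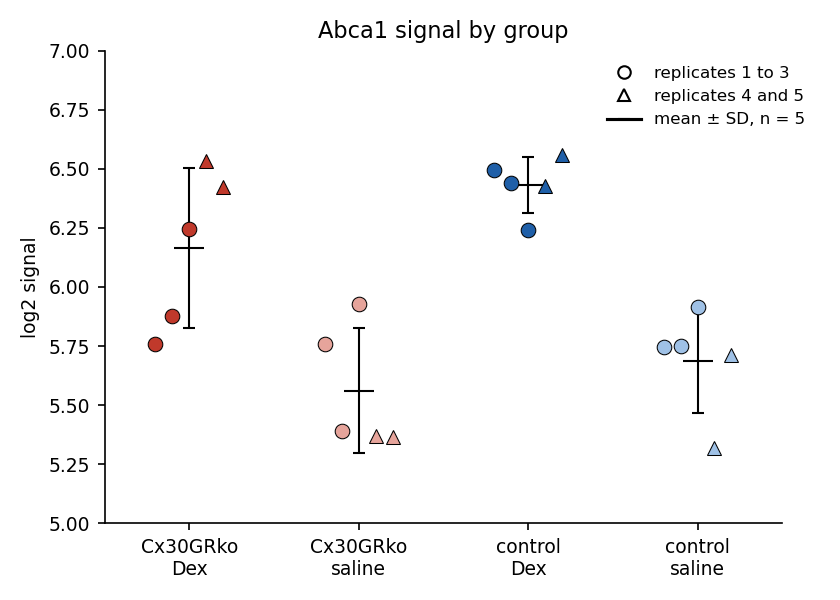
Log2 signal of Abca1 on each of the 20 arrays by group, with replicates 1 to 3 and replicates 4 and 5 drawn as different symbols and a bar for each group mean with its SD (n = 5). The 5 control Dex arrays (6.24 to 6.56) lie above all control saline arrays (5.32 to 5.92), whereas Cx30GRko Dex arrays (5.76 to 6.53) and Cx30GRko saline arrays (5.36 to 5.93) overlap.

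By group, Abca1 averaged 6.17 ± 0.34 in Cx30GRko Dex, 5.56 ± 0.26 in Cx30GRko saline, 6.43 ± 0.12 in control Dex and 5.69 ± 0.22 in control saline arrays (log2 signal, SD, n = 5 each). Control Dex stood highest, then Cx30GRko Dex, then control saline and Cx30GRko saline. The neighbours in that order, other than Cx30GRko Dex over control saline, differed by less than the SD of at least 1 of the groups. The log2 difference between Dex and saline was 0.61 ± 0.17 (SE) in Cx30GRko mice, 1.52-fold, and 0.75 ± 0.17 in control mice, 1.68-fold. Averaged over the genotypes it was 0.68 ± 0.12, 1.60-fold, and in 10 of 10 Dex arrays Abca1 exceeded the saline mean of its own genotype and array set. Abca1 is among the 33 genes called for that mean effect at an adjusted p under 0.05 (0.149% of genes), and by size it was 21st of the 29 that were higher. This is the contrast for which it was picked, so nothing is read from its being called.

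The size of the Abca1 difference varied with the array set. Replicates 1 to 3 gave a log2 difference between Dex and saline of 0.27 in Cx30GRko and 0.59 in control mice, with a mean of 0.43. Replicates 4 and 5 gave 1.11 in Cx30GRko and 0.98 in control mice, with a mean of 1.05. The set with the larger difference is the noisier one and holds the 2 arrays that stood apart. Leaving out these Cx30GRko Dex arrays, replicates 4 and 5, reduced the log2 difference to 0.40 in Cx30GRko mice and that of the mean effect to 0.57. The part that the array set plays in the size of the difference was not tested.

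Whether the Dex effect on Abca1 in whole cord differed between the genotypes is a question apart from that choice. No difference was detected. The Dex effect in Cx30GRko mice minus that in control mice was -0.14 ± 0.24 log2 (SE; 95% interval -0.63 to 0.35; limma, adjusted p = 0.934). Replicates 1 to 3 gave -0.32 for it and replicates 4 and 5 gave 0.13. The interval allows a Dex effect in Cx30GRko mice well below that in control mice or somewhat above it, so the arrays do not show that the genotypes act alike. Under Dex, Cx30GRko mice differed from control mice in Abca1 by -0.27 ± 0.17 log2 (95% interval -0.61 to 0.08; limma, adjusted p = 0.542), with -0.43 in replicates 1 to 3 and -0.02 in replicates 4 and 5. With saline the same genotype difference was -0.13 ± 0.17 (adjusted p = 0.939). Over all genes, 0% were called in any of these 3 comparisons, while 5.65%, 11.2% and 5.25% had an unadjusted p under 0.05.

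The other 7 measured genes of cholesterol export did not pass the test in any of the 6 comparisons (0 of 7 called by limma in each). In Cx30GRko mice 0.0180% of all genes were called for Dex against saline, and in control mice 0.0135%. For the mean Dex effect, 4 of the 7 were positive, with a median of 0.07 and a range of -0.16 to 0.29. Over all genes 54.1% were positive, with a median of 0.02. An unadjusted p under 0.05 was reached by 1 of the 7, Npc1, for the mean effect (8.64% of all genes) and by Npc1 in Cx30GRko mice (9.73%), and by 0 of the 7 in the other comparisons (5.16% of all genes for Dex in control mice).

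**Figure D2:**
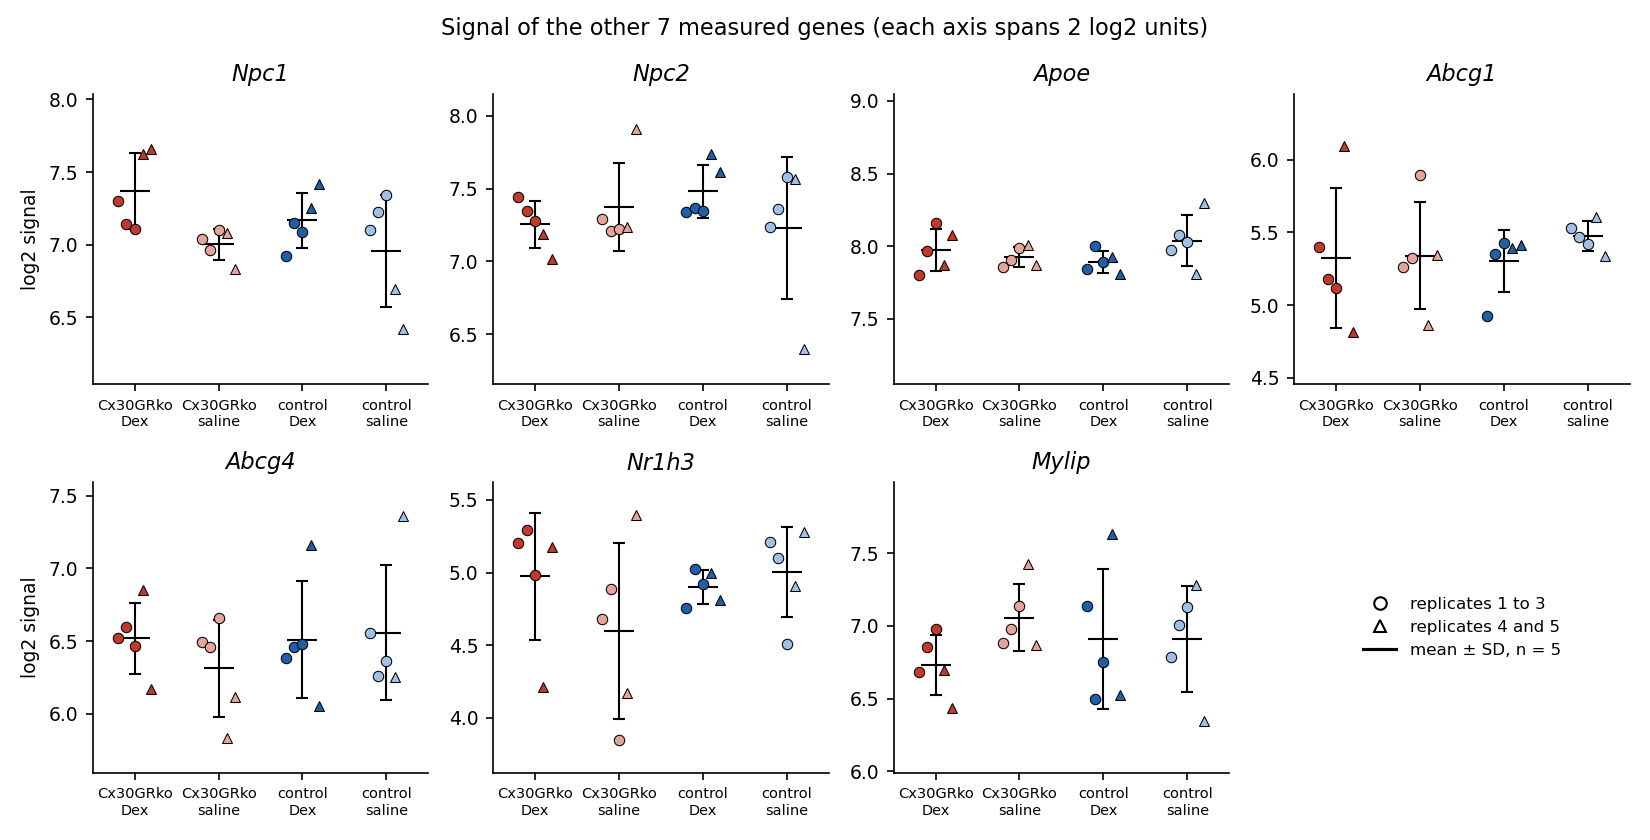
Log2 signal of Npc1, Npc2, Apoe, Abcg1, Abcg4, Nr1h3 and Mylip on each array by group, 1 panel per gene, each panel spanning 2 log2 units, with bars for the group means and SDs (n = 5). Only the Npc1 panel has Cx30GRko Dex arrays that all lie above the Cx30GRko saline arrays, and levels are not to be compared between panels.

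Among the exporters that act after ABCA1, Abcg1 (probe set 17335770) averaged 5.32 ± 0.48 in Cx30GRko Dex, 5.34 ± 0.37 in Cx30GRko saline, 5.30 ± 0.21 in control Dex and 5.47 ± 0.10 in control saline arrays (log2 signal, SD, n = 5). Its arrays ran from 4.81 to 6.10 in Cx30GRko Dex, the widest range of the 4 groups. The Abcg1 log2 difference between Dex and saline was -0.02 ± 0.20 in Cx30GRko mice (adjusted p = 0.985) and -0.17 ± 0.20 in control mice (adjusted p = 0.979). The mean Dex effect of Abcg1, also a classical LXR target, was -0.09 ± 0.14 (95% interval -0.39 to 0.20). Abcg4 (probe set 17526175), a close relative of Abcg1 found mainly in the nervous system, averaged 6.52 ± 0.25, 6.31 ± 0.33, 6.51 ± 0.40 and 6.56 ± 0.46 in these groups. For Abcg4 the mean Dex effect was 0.08 ± 0.16 (adjusted p = 0.901), with all group ranges overlapping.

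Apoe (probe set 17487381), the acceptor of the exported cholesterol, was the steadiest of the 8 genes. Its log2 signal was 7.80, 7.97, 8.16, 7.87 and 8.07 in Cx30GRko Dex and 7.85, 7.91, 7.99, 8.01 and 7.87 in Cx30GRko saline arrays. In control mice Apoe was 7.84, 8.0, 7.89, 7.93 and 7.81 after Dex, against 7.97, 8.08, 8.03, 7.81 and 8.30 with saline. The Dex and saline arrays overlapped in both genotypes. Its mean Dex effect was -0.05 ± 0.08 log2 (limma, adjusted p = 0.892), and the 95% interval of -0.22 to 0.13 is narrower than that of any other measured member.

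Nr1h3 (probe set 17388177), the LXR alpha gene, was the most scattered of the 8. It had log2 signals of 5.21, 5.29, 4.98, 4.21 and 5.18 in Cx30GRko Dex and 4.68, 4.89, 3.85, 4.17 and 5.40 in Cx30GRko saline arrays. In control mice Nr1h3 had 4.75, 5.02, 4.92, 5.00 and 4.81 after Dex and 5.21, 5.10, 4.51, 4.91 and 5.28 with saline. Its ranges overlapped between Dex and saline in both genotypes. The log2 difference between Dex and saline was 0.38 ± 0.24 in Cx30GRko mice (adjusted p = 0.593) and -0.10 ± 0.24 in control mice (adjusted p = 0.993), and the difference between these effects, 0.48 ± 0.34, was not called either (adjusted p = 0.858).

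Mylip (probe set 17286962) encodes a ubiquitin ligase that marks the low-density lipoprotein receptor for breakdown and is switched on by LXR. It averaged 6.73 ± 0.21 in Cx30GRko Dex, 7.06 ± 0.23 in Cx30GRko saline, 6.91 ± 0.48 in control Dex and 6.91 ± 0.36 in control saline arrays. In Cx30GRko mice the log2 difference was -0.33 ± 0.21 (adjusted p = 0.588), and 0 of 5 Dex arrays exceeded the saline mean of their set. In control mice the Mylip difference was -0.00 ± 0.21, and its mean Dex effect was -0.16 ± 0.15 (adjusted p = 0.751). The array sets differed here: in replicates 1 to 3 the Mylip difference was -0.16 in Cx30GRko and -0.18 in control mice, and in replicates 4 and 5 it was -0.58 in Cx30GRko and 0.26 in control mice.

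Npc1 and Npc2 encode the membrane-bound and the soluble protein that together pass cholesterol out of late endosomes and lysosomes. Npc1 (probe set 17352731) had log2 signals of 7.30, 7.14, 7.11, 7.63 and 7.66 in Cx30GRko Dex and 7.04, 6.96, 7.10, 7.08 and 6.83 in Cx30GRko saline arrays. These 2 groups did not overlap, which held with Dex arrays higher for 1.05% of all genes. In control mice Npc1 had 6.92, 7.15, 7.09, 7.26 and 7.42 after Dex and 7.10, 7.22, 7.34, 6.70 and 6.42 with saline, and the groups overlapped. Its log2 difference was 0.37 ± 0.17 in Cx30GRko mice (95% interval 0.01 to 0.72; limma, adjusted p = 0.505) and 0.21 ± 0.17 in control mice (adjusted p = 0.959). The Npc1 value rested on replicates 4 and 5, where its mean Dex effect was 0.73, against -0.01 in replicates 1 to 3. A second, dim Npc1 probe set (17348489, mean signal 3.21) had a mean Dex effect of 0.01 ± 0.09 (adjusted p = 0.982). Its signal lay below the mean of 4.64 over all probe sets, so it cannot decide about the value of the first. Npc2 (probe set 17282563) averaged 7.25 ± 0.16, 7.37 ± 0.30, 7.48 ± 0.18 and 7.23 ± 0.49 in Cx30GRko Dex, Cx30GRko saline, control Dex and control saline arrays, with a mean Dex effect of 0.07 ± 0.14 (adjusted p = 0.905).

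**Figure D3:**
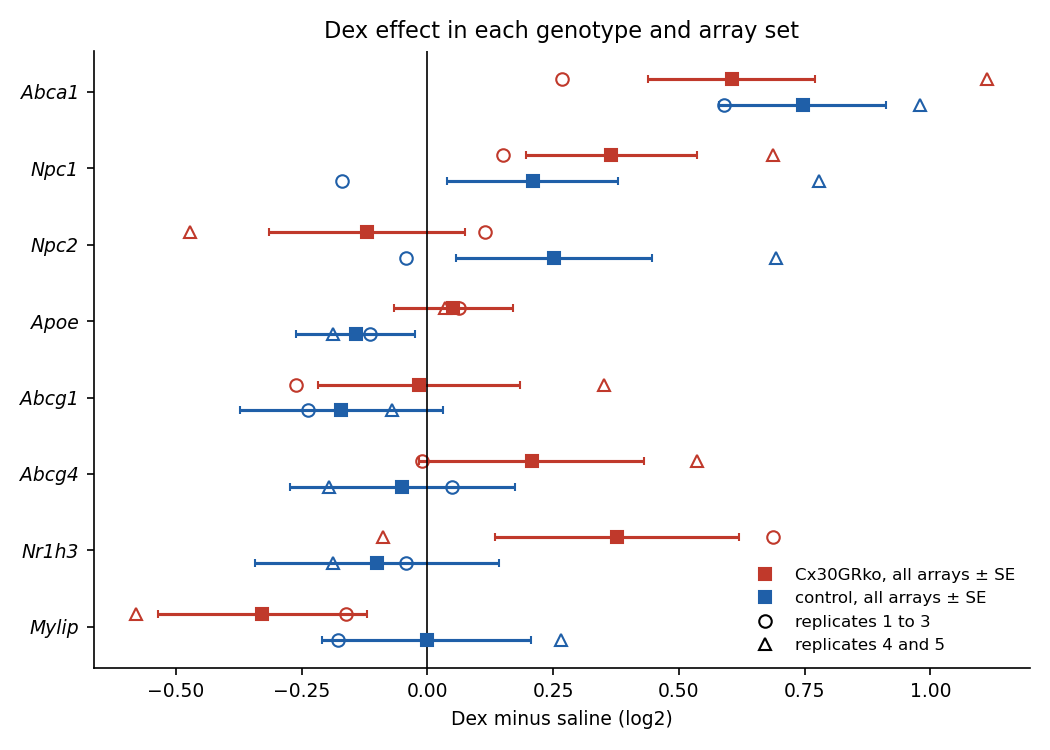
Log2 difference between Dex and saline for the 8 measured genes in Cx30GRko and in control mice, over all arrays (squares, bars ± SE) and within replicates 1 to 3 (circles) and replicates 4 and 5 (triangles). Over all arrays Abca1 lies at 0.61 in Cx30GRko and 0.75 in control mice, and the other 7 genes lie between -0.33 and 0.38.

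The wider cholesterol pathways were described through 8 gene lists, whose measured genes held 0 called genes in every comparison by limma, with 0.149% of all genes called for the mean Dex effect. Of the LXR targets outside the 9 genes, 14 of 18 were measured, and 7 of these were positive, with a median of 0.02. The smallest p among them was that of Mertk, a receptor for the uptake of dying cells, at 0.54 ± 0.15 log2 (adjusted p = 0.326), with 0.80 in replicates 1 to 3 and 0.14 in replicates 4 and 5. Next came Abcg5, a sterol transporter of liver and gut, at -0.28 ± 0.13 and the fatty acid synthase gene Fasn at 0.27 ± 0.17. Replicates 1 to 3 gave -0.07 and 0.02 for these genes, and replicates 4 and 5 gave -0.60 and 0.63. The median of the LXR targets, 0.02, was that of all genes too, but it averages the genotypes. In Cx30GRko mice the median was 0.20, with 10 of 14 positive, and in control mice it was -0.08, with 6 positive. Over all genes 53.7% and 52.3% were positive. Without Cx30GRko Dex replicates 4 and 5 the median in Cx30GRko mice was 0.07, with 10 positive.

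LXR partners and co-regulators were measured for 6 of 8 genes, all 6 positive, with a median mean Dex effect of 0.24. By genotype the median of the list was 0.44 in Cx30GRko and 0.03 in control mice. Rxra, the retinoid X receptor that pairs with LXR, was at 0.34 ± 0.14 (adjusted p = 0.549), the coactivator gene Ncoa1 at 0.37 ± 0.16 and the co-regulator gene Nrip1 at 0.37 ± 0.20. These 3 values came largely from replicates 4 and 5, where they were 0.68, 0.86 and 0.87, against 0.12, 0.04 and 0.04 in replicates 1 to 3. Without Cx30GRko Dex replicates 4 and 5 the median of the list was 0.07, with 5 of 6 positive. Within replicates 1 to 3 alone its median mean Dex effect was -0.01, with 3 of 6 positive. Of the other A-class transporters 9 of 9 were measured, 6 of them positive, with a median of 0.07. Their median was 0.31 in Cx30GRko mice (0.20 without Cx30GRko Dex replicates 4 and 5) and -0.16 in control mice. Abca2, a lipid transporter of oligodendrocytes, was at 0.39 ± 0.16 (adjusted p = 0.541), with 0.65 in Cx30GRko and 0.14 in control mice. Replicates 1 to 3 gave 0.16 for Abca2 and replicates 4 and 5 gave 0.74. Abca5 was at 0.20 ± 0.13 and Abca3, known as the surfactant lipid transporter of lung, at 0.15 ± 0.13. In replicates 1 to 3 they were at 0.11 and -0.02, and in replicates 4 and 5 at 0.34 and 0.39.

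Apolipoproteins and lipoprotein remodelling genes were measured for 11 of 12, with 5 positive and a median of -0.02. Apod, a lipocalin carried by lipoproteins and made by glia, was at 0.34 ± 0.12 (adjusted p = 0.478), with 0.63 in Cx30GRko and 0.05 in control mice, a difference of 0.58 ± 0.24 (adjusted p = 0.846) (replicates 1 to 3 gave 0.27 for it, and replicates 4 and 5 gave 1.05). Apoa2 was at -0.38 ± 0.19 and Apoa1 at -0.40 ± 0.25, both apolipoproteins of high-density lipoprotein. In replicates 1 to 3 they were at 0.03 and -0.23, and in replicates 4 and 5 at -0.99 and -0.66. Lipoprotein receptors were measured for 9 of 12, with 7 positive and a median of 0.14. Their median was 0.22 in Cx30GRko mice (0.03 without Cx30GRko Dex replicates 4 and 5) and -0.03 in control mice. Lrp6, better known as a Wnt co-receptor, was at 0.51 ± 0.22 (adjusted p = 0.553), the apolipoprotein E receptor gene Lrp1 at 0.34 ± 0.16 and the scavenger receptor gene Cd36 at -0.19 ± 0.11. In replicates 1 to 3 they were at 0.15, 0.04 and -0.37, and in replicates 4 and 5 at 1.05, 0.80 and 0.08. For Lrp1 the Dex effect was 0.71 in Cx30GRko and -0.03 in control mice, and the difference between them, 0.75 ± 0.32, was not called (adjusted p = 0.846). Replicates 1 to 3 gave 0.09 for that Lrp1 difference, and 1.72 came from replicates 4 and 5, which hold the Cx30GRko Dex arrays that stood apart.

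Lysosomal and intracellular transport genes were measured for 15 of 15, with 6 positive and a median of -0.05. Lamp1, a lysosomal membrane protein, was at 0.38 ± 0.17 (adjusted p = 0.559), and the sterol carrier genes Stard5 and Stard3 were at -0.35 ± 0.17 and -0.15 ± 0.08. Replicates 1 to 3 gave 0.02, -0.10 and -0.12 for these genes, and replicates 4 and 5 gave 0.91, -0.71 and -0.20. Cholesterol synthesis and its SREBP control were measured for 18 of 21 genes, with 13 positive and a median of 0.08. In Cx30GRko mice the median of the synthesis list was 0.33, with 16 of 18 positive, and in control mice it was -0.07, with 7 positive, beside 53.7% and 52.3% of all genes. The Cx30GRko value rested on the 2 arrays that stood apart: without Cx30GRko Dex replicates 4 and 5 the median of the synthesis list in Cx30GRko mice was 0.08, with 11 of 18 positive. Within replicates 1 to 3 alone its median in Cx30GRko mice was 0.0088. Its members with the smallest p did not share a direction: Mvk (mevalonate kinase) was at 0.38 ± 0.15 (adjusted p = 0.537), Mvd, a later enzyme of the mevalonate pathway, at -0.36 ± 0.17 and the sterol oxidase gene Msmo1 at 0.27 ± 0.16. In replicates 1 to 3 these genes were at 0.07, -0.11 and -0.03, and in replicates 4 and 5 at 0.85, -0.72 and 0.72. Oxysterol and esterification genes were measured for 6 of 8, with 3 positive and a median of -0.02. Cyp46a1, the neuronal enzyme whose oxysterol product carries cholesterol out of the brain, was at 0.41 ± 0.17 (adjusted p = 0.546). Replicates 1 to 3 gave 0.10 for Cyp46a1 and replicates 4 and 5 gave 0.88. The cholesterol ester hydrolase gene Nceh1 was at -0.27 ± 0.20, and Cyp27a1, another enzyme that makes an oxysterol, at 0.09 ± 0.15. Replicates 1 to 3 gave -0.04 and 0.10 for these genes, and replicates 4 and 5 gave -0.62 and 0.06.

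**Figure D4:**
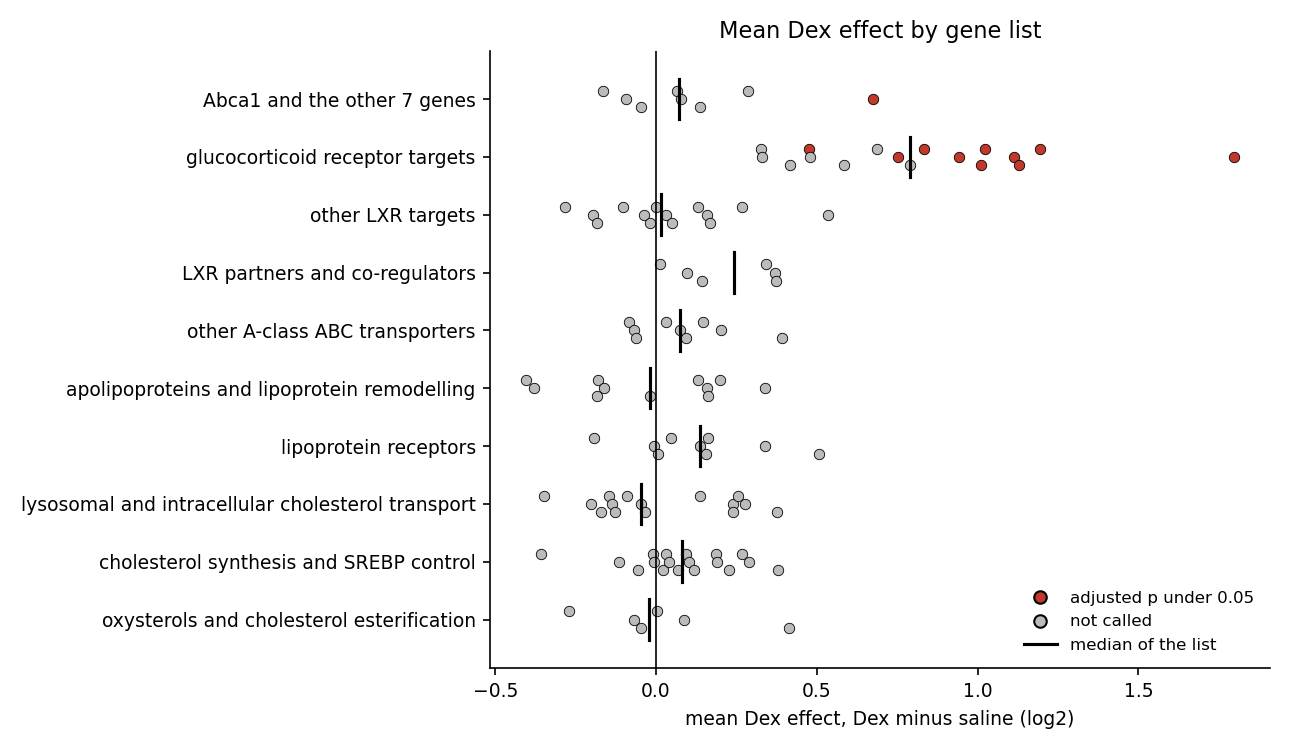
Mean Dex effect (log2) of the 8 measured genes, of the glucocorticoid receptor targets and of the 8 cholesterol lists, 1 point per gene, with a bar for each list's median and red points for genes with an adjusted p under 0.05. The 8 cholesterol lists have medians from -0.05 to 0.24 and no red point, whereas the receptor targets have a median of 0.79 and 10 red points. Abca1 and the receptor targets were chosen with the Dex results known.

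Glucocorticoid receptor targets, a list chosen with these results known, show what the arrays registered of the Dex response. All 17 were measured, 17 were positive with a median of 0.79, and 10 were called higher (0.131% of all genes). The values ran up to 1.80 ± 0.19 log2 for Cdkn1a, an inhibitor of the cell cycle (adjusted p = 7.64e-05). Sgk1, the serum- and glucocorticoid-regulated kinase, was at 1.01 ± 0.13 (adjusted p = 0.000744) and Errfi1, an inhibitor of epidermal growth factor receptor signalling, at 1.02 ± 0.14 (adjusted p = 0.00154). The other called targets were Zbtb16 at 1.19 ± 0.18, Hif3a at 1.13 ± 0.19, Arrdc2 at 1.11 ± 0.15, Plin4 at 0.94 ± 0.18, Ddit4 at 0.83 ± 0.16, Mt2 at 0.75 ± 0.11 and Mt1 at 0.48 ± 0.09, with adjusted p from 0.000919 (Arrdc2) to 0.0359 (Mt1). The mean effect of 0.68 for Abca1 lies below the median of this list and above the medians of the 8 cholesterol lists. Abca1 and this list were both chosen with the Dex results known, so nothing is read from that place. Fkbp5, a chaperone of the receptor complex and a standard marker of its activity, had a mean effect of 0.69 ± 0.18 and was not called (adjusted p = 0.214). The array sets disagreed on Fkbp5, with 1.18 in replicates 1 to 3 (limma on these arrays, adjusted p = 0.000973) and -0.05 in replicates 4 and 5. Ddit4 was at 1.32 and 0.10 and Plin4 at 1.35 and 0.33 in these sets, larger in the first, whereas Abca1 (0.43 and 1.05), Cdkn1a (1.29 and 2.56) and Errfi1 (0.71 and 1.49) were larger in the second.

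The genes whose signal followed that of Abca1 most closely over the 20 arrays were Mt1, Mt2, Cdkn1a, Selenop and Hipk1. Abca1 and the list of receptor targets, which holds Mt1, Mt2 and Cdkn1a, were chosen with the Dex results known. Their likeness is therefore a description that supports nothing. Pearson's r with Abca1 was 0.893 for Mt1 and 0.890 for Mt2, which encode metal-binding metallothioneins, 0.882 for Cdkn1a, 0.819 for the selenium carrier gene Selenop and 0.812 for the kinase gene Hipk1. These arrays share their groups and array sets, so part of each r is the common Dex difference. After each group's mean was subtracted, r was 0.653, 0.651, 0.669, 0.512 and 0.537 for the 5 genes in the same order. These residuals still hold the difference in Dex effect between the array sets. After the mean of each group within each set was subtracted, r was 0.517 for Mt1, 0.370 for Mt2, 0.311 for Cdkn1a, 0.268 for Selenop and 0.0261 for Hipk1. Mt1 had log2 signals of 7.86, 7.80, 7.99, 8.27 and 7.81 in Cx30GRko Dex, 7.64, 7.31, 7.57, 7.46 and 7.17 in Cx30GRko saline, 8.01, 7.96, 7.92, 8.25 and 8.06 in control Dex and 7.80, 7.56, 7.64, 7.41 and 7.61 in control saline arrays. Like Abca1, Mt1 was higher on every control Dex array than on any control saline array, as was so for 0.784% of all genes. In Cx30GRko mice they differed: the Dex and saline arrays overlapped for Abca1 and not for Mt1 (Dex higher without overlap, 1.05% of all genes). Among the other listed genes r with Abca1 was 0.581 for Npc1, the 409th of all genes, 0.214 for Abcg4, 0.018 for Abcg1 and -0.019 for Apoe. For Npc2 it was -0.001, for Nr1h3 -0.098 and for Mylip -0.261.

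Markers of the cell types that make or take up cholesterol were set beside these values. Astrocyte markers (12 of 12 measured) had a mean log2 signal of 7.36 to 8.20 in Cx30GRko Dex, 7.16 to 7.49 in Cx30GRko saline, 7.03 to 7.48 in control Dex and 7.04 to 7.40 in control saline arrays. Of the 12, 11 had a positive mean Dex effect and 0 were called, and the lowest marker, Aldh1l1, still averaged 5.53. Oligodendrocyte precursor markers (6 of 6) ran from 6.01 to 6.30 in Cx30GRko Dex, 5.70 to 6.09 in Cx30GRko saline, 6.01 to 6.15 in control Dex and 5.82 to 6.08 in control saline arrays. Of these 6, 3 had a positive mean Dex effect (range -0.34 to 0.67) and 0 were called. Their mean therefore joins genes of opposite direction. Over the 20 arrays, which share groups and array sets, Pearson's r of a list's mean with Abca1 was 0.643 for oligodendrocyte precursors, 0.531 for neurons, 0.499 for astrocytes and 0.300 for microglia, and between -0.051 and 0.194 for the other 7 measured lists. Microglia markers (10 of 11) ran from 5.19 to 5.35 in Cx30GRko Dex, 4.90 to 5.28 in Cx30GRko saline, 5.18 to 5.51 in control Dex and 5.22 to 5.40 in control saline arrays. Meningeal fibroblast markers (8 of 8) ran from 4.53 to 6.48, 4.58 to 5.85, 4.43 to 5.89 and 5.46 to 6.33 in the same groups. The part of cell composition in the members' differences was not tested.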

How the data were processed

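Spinal cord RNA of 20 mice was labelled with the Affymetrix/Ambion WT Expression kit, per the labels' protocols. The values were used as the authors deposited them, as log2 signals per probe set. The submitters' processing notes name oligo. Not given in the sources used here are its version, the genome build and how the arrays were normalized and annotated. Every array had a mean of 4.64, and the means of the 2 array sets differed by at most 4.5e-09 for any probe set, so the values had been centred within sets. Titles with Tg were read as Cx30GRko and those with wt as controls. The labels put WT or TG under a tag named chronic treatment and saline or Dex under one named acute treatment. The design text gives 5 mice per group and mentions no pooling.

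Of 41345 probe sets, 23521 had 1 gene symbol, 1814 several and 16010 none in GEO's platform annotation. For the 1082 genes with several probe sets, the 1 with the highest mean was used, giving 22180 genes. No dim probe set was removed. All 4 group means were fitted to 20 arrays with limma 3.58.1 in R 4.3.3 (16 residual and 5.66 prior degrees of freedom), after a test on simulated data. P-values were two-sided and adjusted by Benjamini-Hochberg over all genes within each of 6 comparisons, and genes under 0.05 were called. The centring used up 1 degree of freedom that this fit does not count, and the fit with the array set as a block counts it. The number of arrays limits the precision.

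The members, the gene lists and the comparisons were chosen with earlier results of these data known. Named are the 9 listed genes, from each list not of cell markers any called gene and the 3 with the smallest p for the mean Dex effect, the 5 genes most correlated with Abca1, and Fkbp5, Sgk1 and Cdkn1a. Nr3c1 was added as the targeted gene. Marker lists also covered oligodendrocyte precursors, endothelial and mural cells, Schwann cells, ependymal cells and blood cells. With the mean Dex effect, 0 of their genes were called, and medians ran from -0.17 for Schwann cells to 0.20 for astrocytes. These medians average the genotypes. For Schwann cell markers the median was 0.44 in Cx30GRko and -0.84 in control mice. Meningeal fibroblast markers had medians of 0.46 and -0.46 in these genotypes, and astrocyte markers 0.32 and 0.09. In either genotype 0 of these markers were called. The 4 erythrocyte markers were not analysed here. Values of gene lists within array sets and without Cx30GRko Dex replicates 4 and 5 were added after seeing the data. Alternatives covered blocks, array sets, omitted arrays, array weights, normalization and the choice of probe sets.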

Additional observations from a re-analysis of the deposited data

Results flagged for a closer look

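In 4 of 32 groups of 5 arrays (8 genes in 4 groups), 1 array lay far from the other 4 by Dixon's ratio, the gap to the nearest array over the whole range (95% critical value for 5 samples). Chance gives such a ratio in about 1 in 20 groups. For Abcg1, control Dex replicate 1 had a log2 signal of 4.93, below the next value of 5.35 (ratio 0.839). For Abcg4, control saline replicate 5 had 7.36, above the next value of 6.55 (ratio 0.729). For Nr1h3, Cx30GRko Dex replicate 4 had 4.21, below the next value of 4.98 (ratio 0.713). For Npc2, Cx30GRko saline replicate 5 had 7.91, above the next value of 7.29 (ratio 0.883). Of these arrays 3 belong to replicates 4 and 5, where the spread was larger. No array of Abca1, Apoe, Mylip or Npc1 passed the critical value.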

How the results depend on the processing

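The log2 difference of Abca1 between Dex and saline was positive in both genotypes under every alternative run. Its Dex contrasts are those for which Abca1 was chosen, so no call on them, and no repeat of a call in the same arrays, is read as support. Its mean Dex effect ran from 0.63 to 0.73 with 1 array left out. It was not past the threshold, and the count of members called fell to 0 from 1, in replicates 1 to 3 alone (0.43), in replicates 4 and 5 alone (1.05) and without Cx30GRko Dex replicates 4 and 5 (0.57). With array weights the Abca1 difference in control mice was 0.66 and past the threshold, so that 1 member, Abca1 itself, was called there in place of 0. The genotype difference of its Dex effects turned to 0.13 in replicates 4 and 5 alone. All genes called for the mean Dex effect numbered 33, against 101 in replicates 1 to 3, 0 in replicates 4 and 5, 129 with array weights, 15 with the replicate block and 18 to 35 with 1 array left out. For Dex in Cx30GRko mice 4 genes were called, against 0 to 18 under the alternatives, and in control mice 3, against 0 to 58. With the array set as a block, the counts were 24 for the mean Dex effect, 2 in Cx30GRko mice and 3 in control mice. Each of the other 3 comparisons had 0, and without control saline replicate 1 the saline genotype comparison and the difference of the Dex effects had 1 each.

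With the replicate number as a block, the mean Dex effect of Abca1 stayed at 0.68 and no longer passed the threshold, leaving 0 members called. Deviations from the group means of arrays with the same number correlated between -0.306 and 0.0367 over 30 pairs, 0 of them over 0.1. The centring within array sets lowers such correlations, so they cannot tell whether the numbers pair the arrays.

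The remaining changes are signs of differences that were not called in any fit. In replicates 1 to 3 alone, the Dex effect in Cx30GRko mice was -0.012 for Abcg4 and 0.11 for Npc2, and in control mice 0.048 for Abcg4, -0.17 for Npc1 and -0.042 for Npc2. The difference of the Dex effects was -0.024 for Abcg1, -0.060 for Abcg4, 0.018 for Mylip and 0.16 for Npc2. The genotype difference under Dex was -0.0013 for Abcg1, 0.042 for Mylip and 0.0026 for Npc2, and with saline 0.023 for Abcg1, 0.14 for Abcg4, -0.19 for Npc1 and -0.15 for Npc2. The mean Dex effect of Npc1 was -0.0091. In replicates 4 and 5 alone, the Dex effect in Cx30GRko mice was 0.35 for Abcg1 and -0.089 for Nr1h3, in control mice 0.26 for Mylip, and its difference -0.091 for Npc1. The genotype difference under Dex was -0.10 for Abcg4 and -0.21 for Nr1h3, and the mean effect 0.14 for Abcg1 and -0.14 for Nr1h3. Without Cx30GRko Dex replicates 4 and 5, the difference of the Dex effects was -0.027 for Npc1, and the genotype difference under Dex -0.069 for Abcg1. After another quantile normalization, Apoe had -0.12 for Dex in Cx30GRko mice, and under Dex the genotype difference was -0.068 for Abcg4 and -0.11 for Apoe. With array weights, the values were 0.0088 for Npc2 in Cx30GRko mice, 0.027 for Abcg4 and -0.0077 for Npc1 in control mice, -0.042 for Abcg1 between genotypes under Dex, and -0.11 for Npc1 and -0.0058 for Npc2 between genotypes with saline. With 1 array left out, the Dex effect in Cx30GRko mice ran from -0.21 to 0.12 for Abcg1 and -0.17 to 0.015 for Npc2, and in control mice from -0.21 to 0.15 for Abcg4 and -0.18 to 0.10 for Mylip. The difference of the Dex effects ran from -0.039 to 0.29 for Abcg1. The genotype difference under Dex ran from -0.17 to 0.15 for Abcg1, -0.10 to 0.17 for Abcg4, -0.28 to 0.0013 for Mylip and -0.0074 to 0.26 for Nr1h3, and with saline from -0.089 to 0.14 for Npc1 and -0.063 to 0.23 for Npc2. The mean effect ran from -0.0030 to 0.18 for Abcg4 and -0.038 to 0.13 for Npc2. The cause of these changes was not tested.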
